A study of Mus musculus with 33 samples.

Results

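CA1 tissue of the hippocampus from the 8 vehicle-treated young wild-type (WT) mice was described, as the expression landscape of this field in animals that did not receive JQ1. These were all samples whose labels give the vehicle, the strain C57B/6JRj and an age of 3 months, and they made up 8 of the 33 labelled samples of the series, 32 of which had values. The study asked what JQ1, an inhibitor of BET bromodomain proteins, does to memory and to gene expression in CA1. The mice were C57B/6JRj males, injected intraperitoneally for 13 days with vehicle containing 10% DMSO, so that they were untreated with drug but not with injections. They had been caged singly and trained in the water maze, and tissue was taken the day after the probe test. Another 8 mice of the same strain and age received JQ1 at 50 mg per kg for 13 days. They are used here only as further mice in which a spread or a co-variation seen in the vehicle mice could be measured again. They differed in treatment as well as in animals, so where a value differs there, the drug and the change of mice cannot be told apart. The other 3 groups, older WT mice with vehicle and APP/PS1-21 mice with vehicle or JQ1, were not used here.

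CA1 is the output field of the hippocampus proper. Its pyramidal cells receive input from CA3 through the Schaffer collaterals and from the entorhinal cortex, and the field is needed for spatial memory. The packed layer of glutamatergic pyramidal cells is surrounded by layers of dendrites, in which interneurons, astrocytes, oligodendrocytes, microglia and vessels lie. Transcripts of all these cells are therefore mixed in a dissected piece of CA1, so a level cannot tell many cells with little RNA from few cells with much of it.

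The measurement was RNA-seq of total RNA, given as FPKM, the fragments that map to a transcript scaled to its length in kilobases and to all mapped fragments of the library. FPKM is per length, so that levels of different genes can be set side by side. Values are the mean ± SD of the 8 mice (n = 8) unless stated otherwise, and mice are named by the replicate number in their labels. The table held 40678 loci per mouse, of which 36442 carried 1 gene name, 1048 joined several names and 3188 had none. Across the 11880 loci named for a protein-coding gene with a mean FPKM of at least 1, the log2 values of any pair of mice correlated with r between 0.976 and 0.986. FPKM summed to between 504513 and 547881 per mouse. The files give no counts and the depth is unknown, so no counting error is given. Male tissue was seen in all mice, since Xist was at 0.06496 ± 0.0247 FPKM and the Y-linked Ddx3y at 15.7 ± 3.41.

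Protein-coding transcripts held most of the signal. Loci named for a protein-coding gene took 68.5% ± 1.12 of the summed FPKM, loci named for small RNAs 8.51% ± 0.425 and joined loci 10.1% ± 0.353. Among 20428 single-name protein-coding loci, 8548 had a mean FPKM under 1, 5266 lay between 1 and 10, 5996 between 10 and 100, 604 between 100 and 1000, and 14 at 1000 or more.

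The highest single-name loci of all were mostly predicted genes. None of the 13 listed genes of the mitochondrial genome was found by name. This ranking and the shares above therefore hold no locus named for them. The top 2 were Gm10222, annotated as a pseudogene on chromosome 1, at 11199 ± 558 FPKM and Gm20594, on chromosome 6, at 11156 ± 771 FPKM. Of the first 20, 5 were annotated as small RNAs, 5 as pseudogenes and 6 as protein-coding genes, and the other 4 had other annotations or none in the release used. Annotated small RNAs included Gm23134 at 8370.3 ± 2068 FPKM and Gm22408 at 6875 ± 1176 FPKM. These loci span far more bases than a small RNA, so the values may not be those of a small RNA, and the number of reads behind them is unknown. Requiring a span of at least 500 bases kept 18 of the 20, Gm23134 and Gm22408 among them, and so did not remove most of the loci named for small RNAs.

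Established protein-coding genes followed. Calm3 and Calm2, which encode the calcium sensor calmodulin, had 1519.7 ± 103 and 1343 ± 93.8 FPKM. Near them stood Fth1, the ferritin heavy chain that stores iron, at 1491 ± 132, and Cst3, the secreted protease inhibitor cystatin C, at 1304 ± 220.4. Tmsb4x, a thymosin that binds monomeric actin, had 1262 ± 96.9. The respiratory chain and ATP synthase were represented by Cox7b at 1314 ± 183 and Atp5b at 1043 ± 69.9. Mbp, myelin basic protein, had 1256 ± 225 FPKM and Apoe, the lipid carrier made chiefly by astrocytes, 1085 ± 102. Of neuronal genes, Cpe, which processes neuropeptides in secretory granules, had 1236 ± 56.8 FPKM, the vesicle fusion protein Snap25 1061 ± 80.3 and the alpha subunit of calcium/calmodulin kinase II, Camk2a, 799 ± 104. The 20 highest protein-coding loci together held 9.399% ± 0.292 of the protein-coding signal, and 15 of them had an SD under 0.2 on the log2 scale. Of these 20, 3 were predicted genes, among them Gm20594 at 11156 ± 771 FPKM, so the share is not that of established genes alone.

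The tissue held transcripts of the genes listed as markers of CA1 pyramidal cells. No other field was measured for comparison, so these levels do not show that a gene of the list is particular to CA1. All 8 markers on the CA1 list were above 1 FPKM and 7 were at 10 FPKM or more, and the median of their means was 38.2 FPKM. Camk2a, at chr18:60925160-60988174 of mm10, was at 869, 728, 806, 974, 676, 714, 734 and 892 FPKM in mice 1 to 8. Wfs1, which encodes wolframin of the endoplasmic reticulum, lay at chr5:36966041-36988982 and was at 59.2, 45.5, 34.5, 54.3, 48.9, 41.8, 38.2 and 52.3 FPKM. Fibcd1, a membrane lectin gene whose locus was chr2:31670715-31846005, was at 33.5, 25.5, 30.98, 29.8, 20.6, 17.8, 33.8 and 44.7 FPKM. Fibcd1 was lowest in mouse 6 and highest in mouse 8, and its SD was 28.6% of its mean, against 13.01% for Camk2a and 18.01% for Wfs1. Mpped1 was the steadiest marker of this list at 119 ± 3.94 FPKM. Spink8 had 63.97 ± 7.68, Gpr161 22.6 ± 3.597 and the transcription factor Pou3f1 16.1 ± 3.17.

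Genes shared by pyramidal cells of all fields had a higher median than the CA1 list, 160.0 FPKM over 7 genes. Camk2a of the CA1 list, at 799 ± 104 FPKM, nevertheless lay above all 7. Nrgn, the postsynaptic calmodulin-binding protein neurogranin, had 359 ± 38.7 FPKM and Slc17a7, the vesicular glutamate transporter VGLUT1, 342 ± 20.7. The neuropeptide Cck had 229.8 ± 23.9, the kinase inhibitor Camk2n1 160.0 ± 18.9 and the transcription factors Neurod6 and Neurod2 78.1 ± 7.05 and 20.98 ± 2.82.

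**Figure D1:**
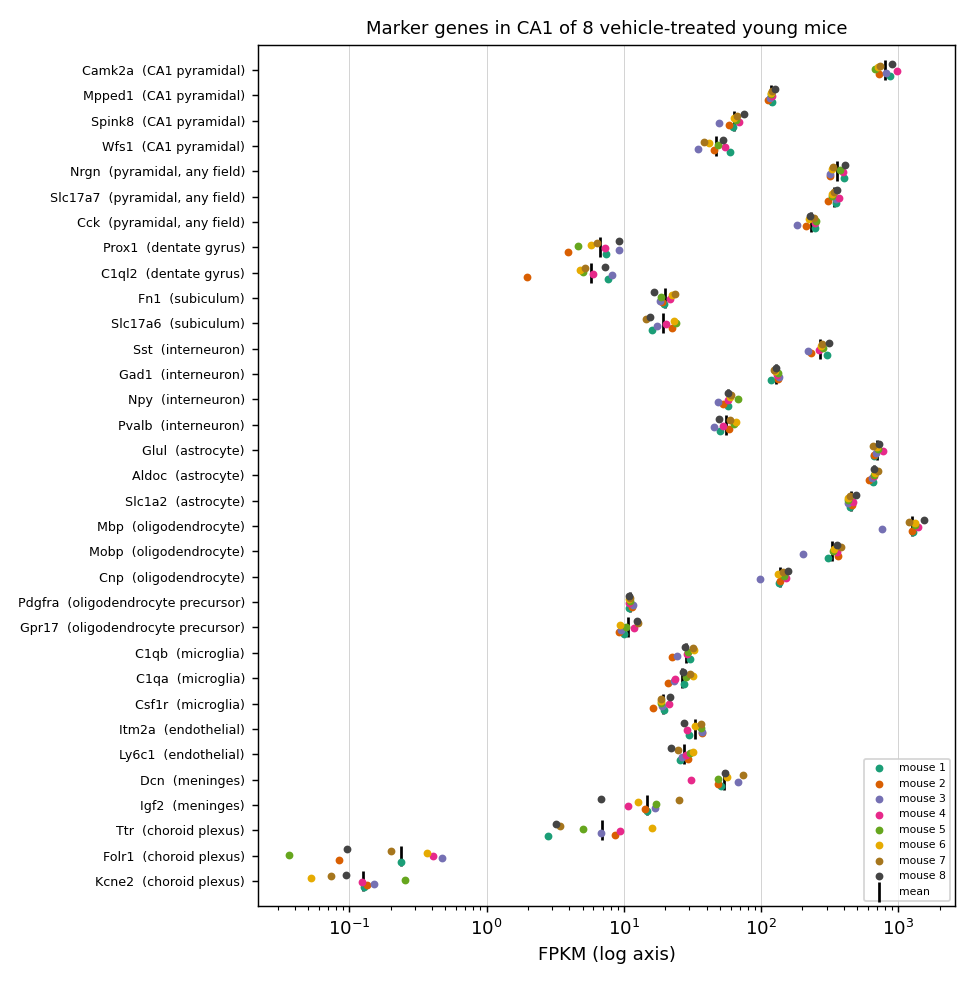
FPKM of marker genes (log axis) in the 8 vehicle-treated mice, 1 point per mouse and a bar at the mean, for genes described in the text from 12 marker lists. Camk2a, Nrgn, Slc17a7 and the astrocyte genes Glul, Aldoc and Slc1a2 lay above 100 FPKM in every mouse, the dentate gyrus genes lay under 30 FPKM, and mouse 3 was lowest for Mbp, Mobp and Cnp.

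Markers of neighbouring fields were present as well. Of 8 dentate gyrus markers, 1 reached 10 FPKM and the median was 3.98 FPKM. Prox1, the homeobox factor of granule cells, was at 7.36, 3.89, 9.22, 7.33, 4.597, 5.72, 6.36 and 9.27 FPKM in mice 1 to 8, and C1ql2, a synaptic organizer of mossy fibres, at 7.68, 1.97, 8.15, 5.95, 5.01, 4.79, 5.24 and 7.34 FPKM. Mouse 2 was lowest for both, and mice 1, 3 and 8 were the 3 highest for both. For CA2, the calmodulin-binding gene Pcp4, in a locus joined with Igsf5, had 99.4 ± 17.3 FPKM, the highest of the CA2 list. The signalling regulator Rgs14 had 28.02 ± 4.85 FPKM, Amigo2 4.98 ± 1.06 and Map3k15 0.501 ± 0.148. None of the 6 CA3 markers reached 10 FPKM, Bok being highest at 8.71 ± 1.34. Of the subiculum list, Fn1 had 20.03 ± 2.43, Nts 18.6 ± 2.95 and the transporter VGLUT2, Slc17a6, 19.1 ± 3.75 FPKM. Among genes known from ventral CA1, the peptide gene Grp had 32.2 ± 5.83, Htr2c 16.4 ± 2.69 and Dlk1 6.55 ± 2.05. Thalamic markers were low, and Gbx2 was listed at 0 in 5 of 8 mice. No pure sample of these fields was measured, so the levels do not give the share of any field in the tissue.

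Of 15 interneuron genes, 11 reached 10 FPKM. Gad1 and Gad2, the enzymes that make GABA, had 128 ± 5.61 and 36.1 ± 1.14 FPKM, with an SD of 4.38% and 3.15% of the mean. Both were thus among the steadiest markers. Sst, the peptide of somatostatin cells, was at 304, 233, 219.5, 263, 285, 274, 276 and 312 FPKM in mice 1 to 8. Other classes were marked by Npy at 57.5 ± 5.59, Pvalb at 55.7 ± 7.36, Lamp5 at 39.6 ± 5.83, Reln at 19.6 ± 3.22, Vip at 17.4 ± 2.104 and Calb2 at 7.71 ± 1.85 FPKM. These are transcript levels, and Sst being higher than Pvalb does not give the ratio of the cells.

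Among astrocyte genes, 11 of 12 reached 10 FPKM. Glul, glutamine synthetase, had 697 ± 40.6 FPKM, the glycolytic enzyme Aldoc 661 ± 27.7 and the glutamate transporter Slc1a2 449 ± 22.03. Gfap had 94.9 ± 9.21, the gap junction gene Gja1 86.1 ± 3.59 and the water channel Aqp4 29.5 ± 3.06.

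All 12 oligodendrocyte markers reached 10 FPKM. Mbp was at 1270.1, 1262, 755, 1388, 1324, 1314, 1204 and 1531 FPKM in mice 1 to 8, and Mobp, another myelin protein, at 307, 363, 202, 356, 333, 342, 382 and 355 FPKM. Mouse 3 was lowest for both, and its Mbp value was well under the next one. Oligodendrocyte precursors were marked by Pdgfra at 11.1 ± 0.300 and Gpr17 at 10.7 ± 1.41 FPKM, Pdgfra having the narrower spread.

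Microglial genes were in a middle range. The complement genes C1qb, C1qa and C1qc had 28.4 ± 3.41, 26.6 ± 3.66 and 17.7 ± 1.76 FPKM, and the receptors Csf1r, P2ry12 and Cx3cr1 had 19.3 ± 1.68, 17.8 ± 1.43 and 14.2 ± 0.880. Endothelial Itm2a had 33.2 ± 4.12, Ly6c1 27.3 ± 3.21 and the tight junction gene Cldn5 24.6 ± 2.64. Mural cells were marked by Vtn at 35.1 ± 5.06 and Rgs5 at 28.9 ± 3.73.

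Markers of cells from outside the field differed in level. Of 9 choroid plexus markers, 5 were under 0.5 FPKM, among them the defining genes Folr1 at 0.238 ± 0.164, Otx2 at 0.109 ± 0.0695 and Kcne2 at 0.126 ± 0.0608. Ttr, the transthyretin of the plexus, was at 2.82, 8.61, 6.84, 9.31, 4.996, 15.99, 3.396 and 3.21 FPKM in mice 1 to 8, with the highest value in mouse 6. The ependymal genes Foxj1, Ccdc153 and Tmem212 all had means under 1. Meningeal genes were led by Dcn at 53.8 ± 13.1 and Igf2 at 14.8 ± 5.38, whereas the collagens Col1a1 and Col3a1 had 1.18 ± 0.496 and 0.469 ± 0.173 FPKM. Haemoglobin Hba-a1 had 5.25 ± 1.58. The proliferation gene Mki67 was at 0.2204 ± 0.0375 and Dcx, a gene of young neurons, at 5.32 ± 0.662.

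Receptor and channel genes were ranked within 28 families. Of 258 genes found, 199 had a mean FPKM of at least 0.5, and each was compared with the next lower member of its family within the same mouse. For 16 of the 258, several loci carried the name, and the locus with the highest mean was used. The same was done for 1 marker gene. Such a level is that of 1 locus and may not be that of the whole gene. In 120 of 171 adjacent pairs the difference in log2(FPKM + 0.1) passed the threshold (exact sign-flip permutation test, two-sided, Benjamini-Hochberg adjusted p under 0.05 over all pairs), and in 51 it did not. The smallest p that 8 mice allow is 0.00781. Since neighbours are set by the order of their means, the test says which steps of the order were larger than the spread between mice, and a bias that a gene has in every mouse is not covered. Of the 120 pairs, 103 passed without each mouse in turn.

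AMPA receptors, which carry fast excitatory transmission, were led by the locus of Gria2, the subunit that sets low calcium permeability. It was at 787, 812, 508, 644, 626, 505, 768 and 518 FPKM in mice 1 to 8, in a locus joined with the predicted RNA Gm25749, whose signal its FPKM, and so its difference from Gria1, may include. Gria1, alone in its locus, was at 198, 184, 192, 222, 150.4, 161, 191 and 220.1 FPKM. Gria2 was above Gria1 in 8 of 8 mice, by 1.75 ± 0.34 (SD) on the log2 scale (adjusted p = 0.0132, exact sign-flip test). Gria3 had 93.4 ± 6.07 FPKM. Gria4 was at 23.1, 26.98, 29.5, 77.1, 88.04, 23.4, 23.1 and 22.1 FPKM, and 2 mice, 4 and 5, lay far above the other 6. Both loci are joined with a predicted RNA, Gm22413 for Gria3 and Gm23811 for Gria4, so their levels and ranks carry the same limit as those of Gria2. The log2 SD of Gria4 was 0.82 in the vehicle mice and 0.19 in the JQ1 mice. The study lists Gria4 among the genes that were lower in JQ1-treated WT mice, by RNA-seq and by qPCR. That difference was not tested here.

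Of the AMPA receptor auxiliary proteins, Olfm1 had 366 ± 28.8 FPKM and the cornichon Cnih2, which aids receptor export, 167 ± 20.1. Among the transmembrane regulatory proteins Cacng7 had 72.7 ± 6.04, Cacng8, a joined locus, 41.9 ± 7.39, Cacng3 32.7 ± 2.603 and Cacng2 10.2 ± 0.683. The step from Cnih3 at 47.2 ± 4.83 to Cacng8 did not pass (adjusted p = 0.0932, exact sign-flip test).

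NMDA receptors, the coincidence detectors of synaptic plasticity, had their obligatory subunit Grin1 at 228, 198, 188, 234, 212, 197, 203 and 236 FPKM. Grin2b was at 36.1, 31.1, 26.4, 32.6, 20.6, 22.2, 24.3 and 36.2 FPKM and Grin2a at 28.01, 29.3, 25.9, 28.99, 21.7, 22.1, 24.2 and 29.6 FPKM. Grin1 lay above both in every mouse. Grin2b and Grin2a, which give the receptor slower and faster currents, could not be ordered, since Grin2b was above Grin2a in 7 of 8 mice by 0.11 ± 0.15 on the log2 scale (adjusted p = 0.0932, exact sign-flip test). Grin2c had 14.5 ± 1.63, Grin3a 9.81 ± 1.16, Grin2d 6.12 ± 0.953 and Grin3b 0.0465 ± 0.01803 FPKM.

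All 6 steps among the kainate receptor genes passed. The order ran from Grik5 at 37.6 ± 3.68 FPKM over the auxiliary gene Neto1 at 23.3 ± 2.43, Grik2 at 19.7 ± 2.41, Neto2 at 13.2 ± 1.35, Grik3 at 10.5 ± 0.5695 and Grik1 at 9.302 ± 0.534 to Grik4 at 7.36 ± 0.896, a joined locus. Of metabotropic glutamate receptors, Grm5, which couples to phospholipase C, had 57.5 ± 6.28 FPKM and was above the next gene, Grm7, in every mouse. Grm7 at 20.5 ± 1.58 and Grm3 at 19.05 ± 1.05 did not differ beyond their spread (adjusted p = 0.199, exact sign-flip test).

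**Figure D2:**
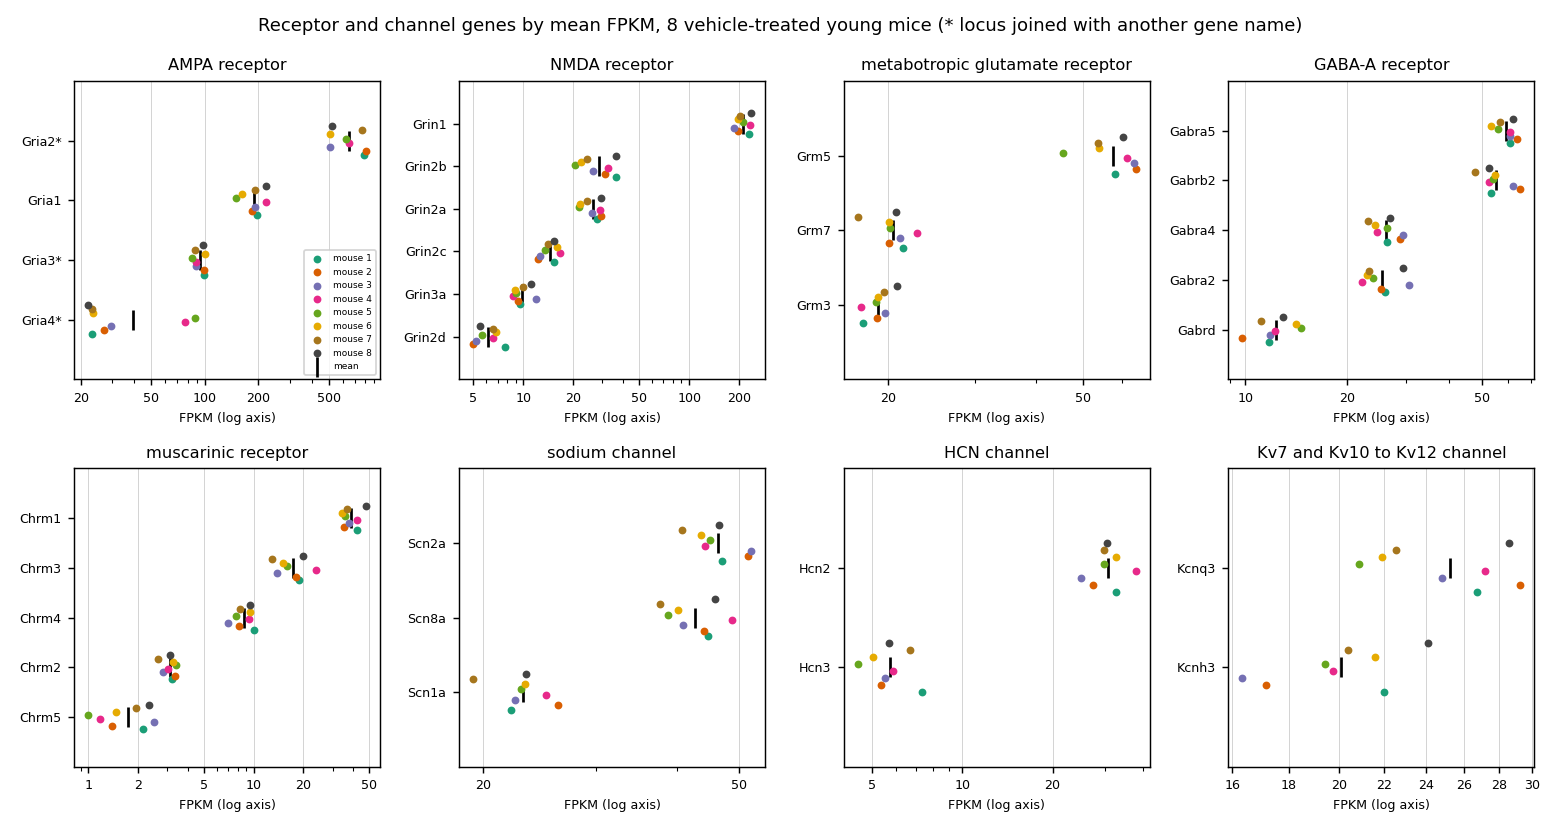
FPKM (log axis) of the genes described in the text from 8 receptor and channel families, 1 point per vehicle-treated mouse and a bar at the mean; a star marks a locus that joins several gene names. Grin1, Grm5 and Chrm1 stood clear of the next member shown in every mouse, whereas Grin2b and Grin2a, and Scn2a and Scn8a, overlapped.

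GABA-A receptors, the chloride channels of fast inhibition, had 10 of 19 genes at 10 FPKM or more, and 10 of 12 steps passed. Gabra5, known for tonic inhibition of CA1 pyramidal cells, was at 60.7, 63.7, 60.7, 60.7, 56.1, 53.3, 56.7 and 62.1 FPKM in mice 1 to 8. It did not differ from Gabrb2 at 55.2 ± 5.56 beyond the spread (adjusted p = 0.121, exact sign-flip test). Gabra4 at 26.1 ± 2.15 and Gabra2 at 25.4 ± 3.06 likewise could not be ordered. The delta subunit Gabrd, found outside synapses, had 12.3 ± 1.58, and Gabra6, known from cerebellar granule cells, 0.0149 ± 0.0125. Of the 2 subunits of the GABA-B receptor, Gabbr1 was at 276 ± 14.2 and Gabbr2 at 46.4 ± 3.89 FPKM, a difference of 2.57 ± 0.11 on the log2 scale. Glrb, the beta subunit of the glycine receptor, had 80.2 ± 6.05, and the alpha subunit Glra2 4.69 ± 0.6895.

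Receptors of neuromodulators lay below Grin1. Among muscarinic receptors, in which all 4 steps passed, Chrm1 had 38.97 ± 4.68 FPKM, Chrm3 17.3 ± 3.58, Chrm4 8.71 ± 1.04, Chrm2 3.104 ± 0.268 and Chrm5 1.75 ± 0.558. The nicotinic subunits Chrnb2 and Chrna7 had 12.5 ± 0.617 and 10.6 ± 1.58, and 11 of 16 nicotinic genes were under 0.5 FPKM. Of serotonin receptors Htr2c had 16.4 ± 2.69 and Htr1a 12.5 ± 1.24, both above the rest. The 7 genes Htr3a, Htr2a, Htr5a, Htr5b, Htr4, Htr1b and Htr7 lay between 3.102 and 4.13 FPKM, and none of the 6 steps among them passed.

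Dopamine receptors were ordered as Drd5 at 5.56 ± 0.852, Drd1, listed as Drd1a, at 2.32 ± 0.431 and Drd2 at 0.891 ± 0.104 FPKM, and both steps passed. The adrenergic receptors Adra1d and Adrb1 had 8.19 ± 1.92 and 4.503 ± 0.364. Adora1, the adenosine receptor of presynaptic inhibition, was at 50.2 ± 3.05 FPKM and the cannabinoid receptor Cnr1 at 47.9 ± 4.88, and they were not ordered (adjusted p = 0.325, exact sign-flip test). Oprl1, the nociceptin receptor, had 26.02 ± 1.395. The mu opioid receptor Oprm1 was at 4.61 FPKM in mouse 3 and 4.31 in mouse 7, and between 1.76 and 2.19 in the other 6 mice.

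Among sodium channels, Scn2a, listed as Scn2a1, was at 46.4 ± 3.904 FPKM and Scn8a at 42.6 ± 3.81. They were close (higher in 7 of 8 mice, adjusted p = 0.0848, exact sign-flip test) and stood above Scn1a at 23.1 ± 2.05, whereas 5 of 10 members were under 0.5 FPKM. In calcium channels the P/Q-type Cacna1a at 35.3 ± 2.64, the T-type Cacna1h at 34.2 ± 6.04, the R-type Cacna1e at 32.9 ± 3.096 and the T-type Cacna1g at 30.6 ± 4.15 formed a run without a passed step. The L-type genes Cacna1c and Cacna1d had 6.64 ± 0.667 and 6.603 ± 0.682 FPKM.

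HCN channels carry the hyperpolarization-activated current, and Hcn2 had 30.6 ± 3.89, Hcn3 5.75 ± 0.913 and Hcn4 0.338 ± 0.07505 FPKM. Kcnq3, a subunit of M-current channels, was at 25.2 ± 3.19 FPKM and Kcnh3 at 20.1 ± 2.54. Voltage-gated potassium channels of the Kv1 to Kv4 families lay close together, and 7 of 14 steps passed. Kcnc1 had 33.6 ± 3.59, Kcnc2 31.7 ± 1.17 and the A-type gene Kcnd2 28.7 ± 2.84 FPKM. The G protein-gated Kcnj3 had 49.9 ± 4.22, astrocytic Kcnj10 35.2 ± 3.57, the leak channel Kcnk1 28.3 ± 1.59 and Trpc4 23.5 ± 1.49 FPKM.

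Immediate early genes, which neurons switch on after activity, were measured the day after the probe test, and 4 of 13 reached 10 FPKM. Egr1 was at 35.3, 26.3, 25.5, 43.9, 28.8, 28.98, 29.98 and 41.7 FPKM in mice 1 to 8, and Nr4a1 at 22.6, 20.3, 15.4, 30.6, 22.4, 20.9, 21.4 and 26.3 FPKM. Arc, which regulates AMPA receptor endocytosis, was at 14.3, 16.3, 10.9, 31.5, 15.3, 18.4, 17.01 and 15.9 FPKM, and Fos at 2.502, 1.83, 1.62, 4.67, 2.396, 2.89, 2.38 and 4.204 FPKM. Mouse 4 was highest and mouse 3 lowest for all 4 genes, and the Arc value of mouse 4 lay clear of the other 7. Npas4 had 1.91 ± 0.469 FPKM and Egr2 0.639 ± 0.3999. No unstimulated or home-cage sample was measured, so these levels cannot be read as above or below rest.

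The glucocorticoid-responsive genes Tsc22d3, Sgk1 and Fkbp5 had 38.6 ± 3.54, 28.6 ± 6.002 and 18.1 ± 2.27 FPKM. Of the clock genes, Tef had 145 ± 7.06, Nr1d1 43.5 ± 4.12, Per1 16.2 ± 1.75, Ciart 11.8 ± 2.004 and Arntl 11.3 ± 0.902 FPKM. The scores of the clock list lay between -0.16 and 0.07 on the log2 scale, and the median SD of its genes was 0.135.

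Promoter windows of both lists were read from RefSeq (build GRCm38.p6, 250 bases before to 50 after the start site), as the sequence context of genes that share a stimulus or a daily rhythm. The cAMP response element, searched as TGACGTCA, which reads the same on both strands, lay in the window of 2 of 9 matched immediate early genes, Btg2 and Dusp1, and in 1.79% of all 32851 windows. The E-box CACGTG lay in that of 3 of 9 matched clock genes, Ciart, Per1 and Tef, and in 7.15% of all windows. A gene was counted if any of its windows held the motif, and some genes have several. The shares of genes and of windows are therefore not the same measure. Dusp1, a phosphatase gene at 9.22 ± 1.86 FPKM, and Ciart, a repressor of the clock, are shown as examples from the minus strand, at chr17:26508423-26508722 and chr3:95882179-95882478, with the motif in capitals. A match is a description and not a site of binding.
Dusp1: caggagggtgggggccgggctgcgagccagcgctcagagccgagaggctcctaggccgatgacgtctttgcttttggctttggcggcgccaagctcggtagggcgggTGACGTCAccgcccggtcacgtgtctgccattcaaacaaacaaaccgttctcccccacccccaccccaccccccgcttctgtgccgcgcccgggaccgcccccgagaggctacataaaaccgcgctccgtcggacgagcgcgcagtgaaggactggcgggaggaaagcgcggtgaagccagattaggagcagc
Ciart: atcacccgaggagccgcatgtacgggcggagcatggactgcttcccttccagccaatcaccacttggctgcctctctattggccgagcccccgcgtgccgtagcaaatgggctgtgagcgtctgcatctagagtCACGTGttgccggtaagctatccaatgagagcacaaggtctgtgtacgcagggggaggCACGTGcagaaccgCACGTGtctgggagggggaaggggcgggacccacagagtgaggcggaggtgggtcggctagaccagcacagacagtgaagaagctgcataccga

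Expression differed little between mice for most genes. The SD of log2(FPKM + 0.1) over the 8 mice had a median of 0.145 for the 13122 single-name loci with a mean FPKM of at least 1, a value above 0 in all mice and a span of at least 500 bases. It was 0.154 for the same loci in the JQ1 mice. For protein-coding loci the median SD was 0.25 at a mean of 1 to 2 FPKM and 0.11 at 100 FPKM or more. An SD over 1 was seen in 47 single-name loci. Steady genes above 100 FPKM included Lancl1 at 106 ± 1.98 and Syt11 at 224 ± 4.86 FPKM.

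Of the 20 loci with the widest spread, 10 were annotated as small RNAs and 10 as protein-coding genes, although small RNAs were 0.861% of the loci ranked. These loci were chosen by their spread, so their values are a description. The snoRNA locus Gm25965 had the highest SD, 2.77, with 0.813, 0.877, 3.07, 0.718, 28.7, 53.5, 35.4 and 49.5 FPKM in mice 1 to 8. It was at about 50 FPKM in mice 6 and 8 and under 1 in mice 1, 2 and 4. The last of the 20 was Gm10217 with an SD of 1.27. Of the 20, 3 were also among the 20 widest in the JQ1 mice, and of the 200 widest 109 were among the 200 widest there.

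Among protein-coding loci, several had values on separate levels. Uck2, which encodes uridine-cytidine kinase 2, was at 126, 139, 8.31, 56.3, 8.62, 8.88, 108 and 9.20 FPKM in mice 1 to 8. Mice 3, 5, 6 and 8 lay under 10 FPKM and the other 4 above 50, and its log2 SD was 1.92 here and 1.69 in the JQ1 mice. Arhgap27, a GTPase-activating protein, was at 19.5, 17.04, 3.45, 17.4, 3.69, 18.8, 43.7 and 4.61 FPKM, low in mice 3, 5 and 8. Alox5ap, needed for leukotriene synthesis, was at 12.7, 23.1, 16.6, 25.2, 5.13, 37.97, 5.89 and 31.9 FPKM, low in mice 5 and 7. The log2 SD of Alox5ap was 1.07 here and 1.38 in the JQ1 mice.

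Others were set by 1 or 2 mice. Tlr13, a receptor of bacterial RNA, was at 0.472, 0.583, 0.537, 0.618, 0.456, 2.34, 10.9 and 0.468 FPKM, high in mouse 7 and next in mouse 6. Its log2 SD was 1.54 here but 0.19 in the JQ1 mice. The study lists Tlr13, too, among the genes lower in JQ1-treated WT mice, which was not tested here. March3, a ubiquitin ligase gene, was at 8.83, 6.32, 5.77, 0.774, 6.06, 0.000874, 3.38 and 3.94 FPKM, close to 0 in mouse 6. The adenylosuccinate synthase gene Adss was at 2.49, 2.302, 0.00222, 0.00211, 3.59, 1.49, 1.25 and 0.581 FPKM, close to 0 in mice 3 and 4. At a mean FPKM of at least 5 the widest protein-coding loci also included Rarg, a retinoic acid receptor, at 3.44, 16.1, 3.12, 3.73, 3.33, 3.67, 15.7 and 3.67 FPKM, high in mice 2 and 7. Of the 20 widest protein-coding loci at this level, 13 were among the 20 widest in the JQ1 mice.

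**Figure D3:**
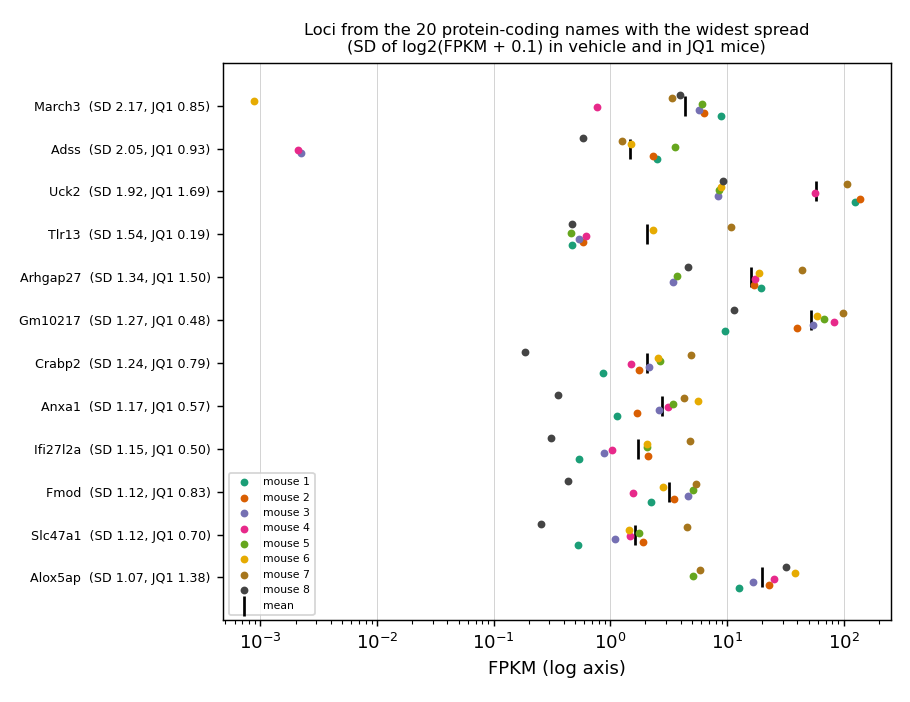
FPKM (log axis) in each vehicle-treated mouse of loci described in the text from the 20 protein-coding names with the highest SD of log2(FPKM + 0.1), with a bar at the mean and the SD in vehicle and JQ1 mice in the label. Uck2 split into 4 mice under 10 FPKM and 4 above 50, and Crabp2, Anxa1, Ifi27l2a, Fmod and Slc47a1 were all lowest in mouse 8. The study lists Slc47a1 among the genes lower in JQ1-treated WT mice.

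The scores of the gene lists differed in how far they varied between mice. A list score was the mean, over the list's members, of the deviation of log2(FPKM + 0.1) from the mean of the 8 mice. The meninges score ranged widest, from -0.80 in mouse 8 to 0.75 in mouse 7, and the dentate gyrus score ran from -0.72 in mouse 2 to 0.43 in mouse 3. The CA1 score lay between -0.19 in mouse 3 and 0.20 in mouse 4. Interneuron and astrocyte scores were narrow, with SDs of 0.0462 and 0.04895, whereas the median SD of their genes was 0.188 and 0.124. A score averages over genes, so a narrow score does not mean that the single genes were steady.

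**Figure D4:**
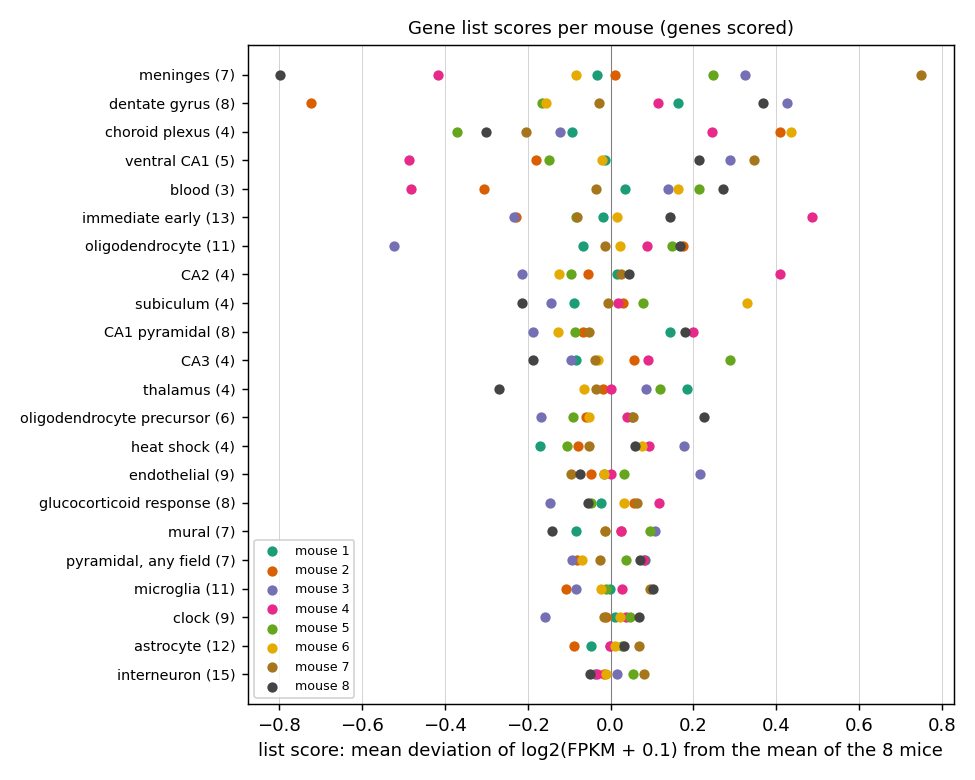
Score of each gene list (log2 scale, mean deviation from the mean of the 8 mice) in each vehicle-treated mouse, with the number of genes scored, ordered by the SD of the score. Meninges and dentate gyrus scores spread widest, mouse 3 was lowest for oligodendrocyte genes, and mouse 4 was highest for immediate early and CA2 genes.

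Lists differed in how closely their genes moved together. The median r over pairs of oligodendrocyte genes was 0.81 in the vehicle mice and 0.87 in the JQ1 mice. Without mouse 3 it was 0.31 in the vehicle mice. For dentate gyrus genes it was 0.71 and 0.77, and 0.55 without mouse 2, and for ventral CA1 genes 0.62 and 0.76, and 0.31 without mouse 4. Over all pairs of loci ranked by spread the median r was 0.02 and 0.02. Meninges genes had 0.59 and 0.37, and 0.44 without mouse 7. CA3 genes had 0.01 and -0.23. CA1 genes had 0.44 and 0.52. Astrocyte genes had 0.08 and -0.01, and interneuron genes -0.02 and 0.08, so that these lists did not move as one.

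Between lists, no relation passed correction. Of 231 pairs of 22 lists, 0 had an adjusted p under 0.05 with Pearson's r or with Spearman's rho (exact permutation of the pairings, two-sided, Benjamini-Hochberg over all pairs), and 14 had an unadjusted p under 0.05 with Pearson's r. Chance alone puts about 1 in 20 pairs under that unadjusted threshold, so the 14 are near that share and are not read as an excess. The smallest p belonged to the CA1 and CA2 lists, with r = 0.81 (exact permutation p = 0.000868, adjusted 0.192) and rho = 0.98 (exact permutation p = 0.000397, adjusted 0.0917). Without mice 4 and 8 r was 0.80, and in the JQ1 mice it was 0.68. The 6 pairs among the CA1, general pyramidal, CA2 and immediate early lists were all among the 14, with r between 0.67 and 0.90, and between 0.63 and 0.95 in the JQ1 mice. Leaving out the 2 mice farthest from the median gave r between 0.34 and 0.81 over these 6 pairs, the lowest for CA2 and immediate early genes. Interneuron and meninges scores had r = 0.88 (exact permutation p = 0.002703, adjusted 0.208) and rho = 0.86 (exact permutation p = 0.0107, adjusted 0.495). Without mice 7 and 5 r was 0.85, and in the JQ1 mice it was 0.02. Precursor and mural genes had r = -0.90 (exact permutation p = 0.00166, adjusted 0.192) and rho = -0.95 (exact permutation p = 0.00114, adjusted 0.132). Without mice 8 and 3 r was -0.69, and in the JQ1 mice it was 0.10.

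The 200 widest single-name loci were clustered by their correlation over the mice, which gave 21 groups of at least 5 loci. The groups were built from these values, so that only the JQ1 mice, which also differed in treatment, give values from outside them. The largest, with 23 loci, was led by Ptgds and Gm10217 and had a median r of 0.72 in the vehicle and 0.27 in the JQ1 mice. Over the 21 groups the median r in the JQ1 mice ranged from -0.32 to 0.31.

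When the 200 widest protein-coding loci were clustered in the same way, a choice made after seeing the data, 20 groups of at least 5 loci were formed, with a median r inside a group between 0.59 and 0.87. The largest group held 40 loci, and its median r was 0.66 in the vehicle and 0.57 in the JQ1 mice. Without mouse 8 it was 0.43 in the vehicle mice. In the other 19 groups it was at most 0.22 in the JQ1 mice, against 0.02 over all pairs of protein-coding loci ranked.

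The 5 highest members of the large group were Ptgds, Gm10217, Mgp, Igf2 and Spp1. Ptgds, the brain prostaglandin D synthase, was at 392, 540.0, 486, 368, 734, 511, 963 and 205 FPKM in mice 1 to 8. Mgp, matrix Gla protein, was at 18.7, 30.6, 28.7, 25.2, 36.1, 34.4, 61.02 and 13.6 FPKM and the growth factor gene Igf2 at 14.8, 14.2, 16.7, 10.7, 17.1, 12.6, 25.2 and 6.86 FPKM. Spp1, osteopontin, was at 4.41, 8.68, 7.48, 3.698, 11.1, 9.14, 10.6 and 2.45 FPKM. Mouse 8 was lowest for these 4 genes, and mouse 7 was highest for all but Spp1, which was highest in mouse 5.

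Further members, picked for mention after their values were seen, were the small leucine-rich proteoglycans Ogn at 3.38 ± 2.06 and Fmod at 3.21 ± 1.77, the retinoic acid genes Aldh1a2 at 2.69 ± 1.53 and Crabp2 at 2.08 ± 1.42, and the transporters Slc6a13 at 4.35 ± 1.82, Slc13a4 at 2.92 ± 1.48, Slc47a1 at 1.62 ± 1.31, Slc22a6 at 1.297 ± 0.617 and Slc6a12 at 1.26 ± 0.9501 FPKM. The group also held Anxa1, Serping1 and Cldn1. Of its 40 loci, 3 (Igf2, Slc6a13 and Ogn) were on the meninges list of 8 genes. The list's 7 scored genes summed to between 50.4 and 121 FPKM per mouse, with Col3a1 left out as too low, and their part in the group was not tested. The group's mean deviation on the log2 scale was -1.26 in mouse 8 and 0.61 in mouse 7.

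Among protein-coding loci with a mean FPKM of at least 5, also clustered after seeing the data, a group of 8 loci held the dentate gyrus markers Prox1 and C1ql2 with Erlin1, Tmem150c and Gpsm2, lowest in mouse 2, and its median r was 0.72 in the vehicle and 0.33 in the JQ1 mice.

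**Figure D5:**
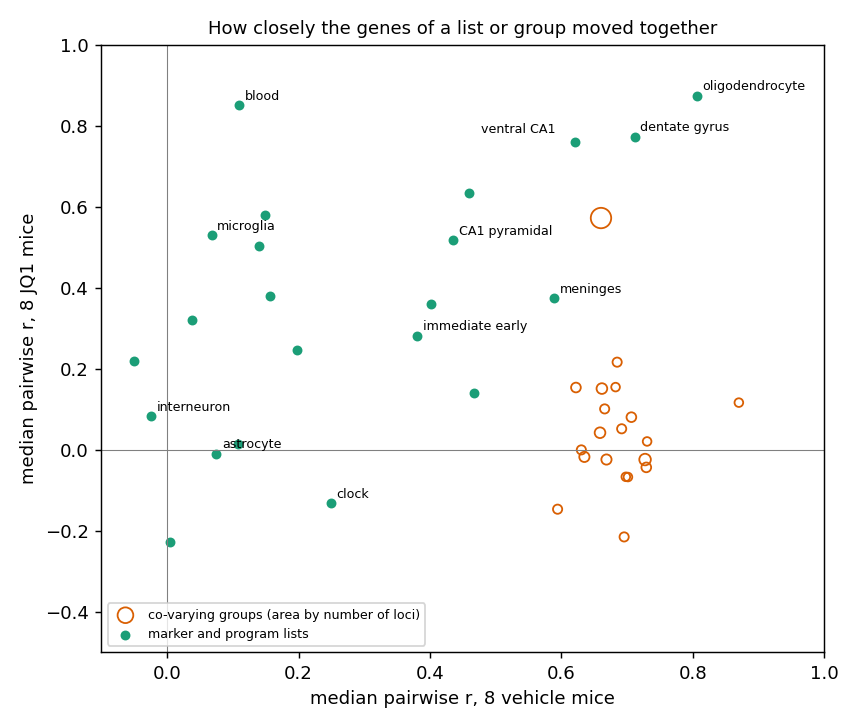
Median correlation over pairs of genes in the 8 vehicle mice (x axis) and in the 8 JQ1 mice (y axis), for the gene lists (filled points) and for the 20 groups formed from the 200 widest protein-coding loci in the vehicle mice (circles, area by the number of loci). Of the groups, the one with 40 loci lay highest on the y axis, and oligodendrocyte and dentate gyrus lists were high on both axes.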

How the data were processed

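RNA-seq of microdissected CA1 was analysed from the 8 vehicle-treated young WT mice. The 8 JQ1-treated young mice gave values set beside theirs, and the older groups were not used here. According to the methods, the authors aligned reads to mm10 with STAR, allowing 2 mismatches, counted with HTSeq and used Cufflinks and Cuffdiff downstream. The deposited FPKM values are given per locus, and which tool made them is not given in the sources used here. The submitters' processing notes also name CASAVA 1.8.2 and TopHat. Loci carry coordinates of assembled transcripts, so overlapping genes can share a locus, and whether reads were counted by strand is not given in the sources used here.

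Gene types came from a GENCODE M21 table of names. Values were tested as log2(FPKM + 0.1), a scale that understates differences of low genes. Members of a family with a mean FPKM of at least 0.5 were compared with the next lower member by an exact two-sided sign-flip test over 256 sign patterns, and list scores by exact permutation over 40320 pairings, both with Benjamini-Hochberg adjustment at 0.05. Lists needed 3 members at that level. Spread was ranked over loci of at least 500 bases with a mean FPKM of at least 1 and values above 0, and the 200 widest were clustered by average linkage on 1 - r, cut at 0.5, keeping groups of at least 5. Correlations within lists are descriptions. Named were the 20 highest and the 20 widest loci, all list and family members, and the 5 highest loci of a group. Steady genes, loci beyond these ranks and other group members were picked after their values were seen. Members and lists were chosen with earlier results of these data known. Some genes of these lists and ranks are not reported here. The tests were checked on simulated data. Batches of dissection or sequencing are not given in the sources used here. Python 3.11.15, numpy 2.4.6, pandas 2.3.3, scipy 1.17.1 and matplotlib 3.10.9 were used.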

Additional observations from a re-analysis of the deposited data

Results flagged for a closer look

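In 7 of 64 sets of 8 values, the highest or lowest mouse was set apart from the others by a gap of more than 0.526 of the whole range (Dixon's test). Chance alone sets apart about 1 in 20 independent sets not chosen by their values. Some of these sets were loci chosen for a wide spread in the same mice, and others overlap, as Mbp does with the oligodendrocyte list, so the count cannot be read against that rate. Mouse 3 was the one set apart in 5 of them. Its score for oligodendrocyte genes was -0.52, against -0.07 for the next mouse, a gap of 0.655 of the range, and for Mbp, among the highest protein-coding genes, the gap was 0.659. Mouse 3 was also lowest for Fth1, with a gap of 0.569, and for the clock genes, with a gap of 0.629. It was highest for endothelial genes, at 0.22 against 0.03 and with a gap of 0.586. Mouse 4 was highest for CA2 genes, at 0.41 against 0.04, a gap of 0.583. Mouse 2 was lowest for Taco1, a mitochondrial translation gene among the widest protein-coding loci, with a gap of 0.688, which is a description since Taco1 was chosen for its spread in these mice.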

How the results depend on the processing

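The count of ordered subunit pairs lay between 109 and 133 under the 14 alternatives tried, and between 113 and 117 without each mouse in turn. No pair of lists passed correction under any of 15 alternatives. Some of these could not have passed a lone pair. With 1 mouse left out and 253 pairs of lists, the lowest p the exact permutation test allows is too high. Without mouse 7 the smallest p was 0.000198 (exact permutation test) and did not pass, so such runs cannot decide whether a pair is related. Of the 20 widest loci, 12 were kept at a mean FPKM of at least 5 and 10 when loci named for protein-coding genes alone were ranked, a choice made after seeing the data, and 15 to 20 under the other alternatives. Of the 20 highest loci, 6 were kept among protein-coding names alone, also chosen after seeing the data, and 18 to 20 otherwise. Clustering the 100 widest loci gave 6 groups in place of 21, and the other alternatives 17 to 23. The alternatives that gave 12, 10 and 6 of 20 loci, and 6 groups, ranked or clustered fewer loci. Within-list correlations of oligodendrocyte, CA2, immediate early and subiculum genes rested in part on 1 mouse, the median r being 0.31 without mouse 3, -0.06 and 0.11 without mouse 4, and -0.07 without mouse 6. No paired analysis was possible because no groups of mice were compared, and the subunit order was tested within each mouse. Without counts, the precision of low values cannot be given.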

Other observations

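Of the heat shock genes, Hspa8, a constitutive chaperone, had 646 ± 87.2 FPKM, Hsp90aa1 385 ± 19.5 and the inducible Hspa1a 2.14 ± 0.3496. The glucocorticoid response score had an SD of 0.0843 on the log2 scale, while the median SD of its genes was 0.194 and the median r between them -0.05. The heat shock score had an SD of 0.119.

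Among protein-coding loci with a mean FPKM of at least 5, clustered after seeing the data, further groups varied together in the vehicle mice. Their members named here were picked, and the cell types behind the groups were not tested. A group of 9 loci with Camk2d, a calcium/calmodulin kinase subunit, and the transcription factor Mef2c had a median r of 0.67 in the vehicle and 0.39 in the JQ1 mice. A group of 9 with Fibcd1, Dlk1 and the nuclear receptor Nr2f2, highest in mouse 8, had 0.72 and 0.20. Arc fell into a group of 8 with Rasd1, highest in mouse 4, at 0.71 and 0.18. A group of 16 led by the metallothionein Mt2 and by Ndn had 0.67 and 0.31. Precursor and microglia scores had r = 0.82 (exact permutation p = 0.0123, adjusted 0.376) and rho = 0.86 (exact permutation p = 0.0107, adjusted 0.495). Without mice 8 and 3 r was 0.67, and in the JQ1 mice it was 0.84. Oligodendrocyte and clock scores had r = 0.91 (exact permutation p = 0.0179, adjusted 0.458) and rho = 0.60 (exact permutation p = 0.132, adjusted 0.764). Without mice 3 and 1 r was 0.45, and in the JQ1 mice it was 0.14.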
